A study of Mus musculus with 2 samples.

Results

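The 10 genes described here encode subunits and regulators of cohesin and condensin and were taken by symbol from the 32285 genes counted in single cells of mouse embryos. They are Rad21, Smc1a, Smc3, Stag1 and Stag2 of the cohesin complex, its loading factor Nipbl, its acetyltransferase Esco2, and Smc2, Smc4 and Ncapd2 of condensin. Tissue of E14 embryos without head and viscera had been dissociated and sorted on the tdTomato (tdT) reporter, and 1 library had been made per genotype with 10x Genomics 3' chemistry. Both genotypes carry Myf5-Cre, in which the Myf5 promoter drives the recombinase, the Cre-dependent Rosa26-LSL-tdT reporter, and at least 1 floxed allele of Srsf2, which encodes a splicing factor. In SRSF2f/f/Myf5-Cre/tdT embryos (MKO/tdT) both Srsf2 alleles are floxed, and in their SRSF2f/w/Myf5-Cre/tdT counterparts (Het/tdT) 1 allele is. The gate takes every cell with a history of Myf5-Cre activity, and thus not muscle cells alone. How many embryos went into a library is not given in the sources used here.

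Cohesin is a ring of Smc1a, Smc3 and Rad21 that encloses DNA, and a Stag subunit binds the ring through Rad21. It holds sister chromatids together from S phase to anaphase, and it also folds chromatin into loops, so that it is present in cells that do not divide. Nipbl loads it onto chromatin, and Esco2 acetylates Smc3 during DNA replication, which makes cohesion stable. Condensin is built on the Smc2 and Smc4 pair and compacts chromosomes in mitosis. Condensin I and condensin II share this pair, and Ncapd2 belongs to condensin I. In embryonic muscle, progenitors divide until they leave the cell cycle to differentiate.

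The library labels had to be read with care. The matrix held 15268 barcodes of one library and 12498 of the other, and these numbers tied each library to a sample title. By the titles, the first is f/f and the second f/w. The headings of the study's quality metrics name them the other way round, with the larger library as Het/tdT. The submitters' cell summaries also name the sample titled f/f WT and the sample titled f/w KO. Srsf2, the targeted gene, reached 219 CPM (UMIs per 1000000 UMIs of the same cells; exact 95% Poisson interval 217 to 221) in the library labelled f/f and 153 CPM (151 to 155) in the library labelled f/w. It was thus lower where the title leaves an intact allele, with a log2 ratio of f/w over f/f of -0.52 (-0.54 to -0.49), which goes against the titles. These values pool all kept cells, whose mix of types differs between the libraries, and the part of the mix in the ratio was not tested. Whether the 3' reads lie in the floxed part of Srsf2 was not examined. Myogenic progenitors and differentiating myocytes, typed as described next, were 1955 of 7156 typed cells (27.3%) in the library labelled f/f and 96 of 5442 (1.76%) in the library labelled f/w. By the muscle shares in the study's text, this order also goes against the titles. That text, unlike the headings, counts more MKO/tdT than Het/tdT cells, the order of the titles. The headings, the cell summaries, Srsf2 and the muscle shares thus go against the titles, and the counted cells go with them. Which genotype each library holds was not settled. The titles are kept below as names, "the library labelled f/f" and "the library labelled f/w", and every comparison of the libraries is one of labels, whose direction by genotype would turn if the titles were exchanged.

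The libraries held 156093779 (f/f) and 128116615 UMIs (f/w). After filters 12523 and 10345 cells were kept, with medians of 10751 and 9480 UMIs per cell. Limits on marker UMIs gave 1 of 15 cell types to 12598 cells, while 8453 had no type and 1817 met the limits of several types and were left out. Markers outside these limits followed the types. Col2a1 of cartilage was at 10521 and 8666 CPM in chondrocytes (f/f and f/w) and at most 178 CPM in mesenchymal cells, progenitors, myocytes and blood endothelial cells. Msc, a factor of muscle progenitors, was at 133 and 153 CPM in myogenic progenitors. Cells with at least 3 UMIs of Mki67 and Top2a together, genes of proliferating cells, are called cycling and those with at most 2 non-cycling, so Mki67 and Top2a themselves are no result here. The libraries shared 74 barcode sequences, 50 of them among the kept cells. With 1 library per genotype there are no replicates and no test was made, and all intervals are exact 95% intervals that cover counting error only. A gene is said to be past the limit where its log2 ratio is at least 0.58 in size and the interval of the ratio excludes 0, among genes with at least 50 UMIs in both groups of cells together. In such sums, more RNA per cell and more cells with the RNA are not told apart.

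The GENCODE annotation of GRCm38 places Rad21 on chromosome 15 (51962240 to 51991747, minus strand), Smc1a on chromosome X (152016428 to 152062694, plus strand), Smc3 on chromosome 19 (53600398 to 53645833, plus strand), Stag1 on chromosome 9 (100597798 to 100959375, plus strand) and Stag2 on chromosome X (42149317 to 42277185, plus strand). It places Nipbl on chromosome 15 (8290617 to 8444463, minus strand), Esco2 on chromosome 14 (65819038 to 65833994, minus strand), Smc2 on chromosome 4 (52439243 to 52488260, plus strand), Smc4 on chromosome 3 (69004738 to 69034623, plus strand) and Ncapd2 on chromosome 6 (125168007 to 125191701, minus strand), and no other coding gene overlaps any of the 10. The sequences just before the starts of 4 members are shown, Smc2 and Ncapd2 of condensin and Smc1a and Smc3 of the ring. They were picked with the comparison of cycling and non-cycling cells that follows known. Whether their motifs have a part in the levels was not tested. RefSeq windows (GRCm38.p6) from 250 bases before the start were at hand for 5 of the 10 members, Smc1a, Smc3, Stag1, Smc2 and Ncapd2. The stretches are cut to at most 180 bases that lie in no GENCODE exon and read 5′ to 3′ on the strand of the gene. Capitals mark the CHR (TTTGAA or TTCGAA) and the CCAAT box (CCAAT), a pair of motifs of cell cycle promoters searched on both strands, so that TTCAAA and ATTGG are matches on the opposite strand.
Smc2 (plus strand, chr4:52439041-52439220): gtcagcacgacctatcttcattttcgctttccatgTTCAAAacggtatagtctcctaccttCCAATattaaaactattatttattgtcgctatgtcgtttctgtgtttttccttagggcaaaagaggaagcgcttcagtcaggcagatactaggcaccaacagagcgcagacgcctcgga
Ncapd2 (minus strand, chr6:125191702-125191800): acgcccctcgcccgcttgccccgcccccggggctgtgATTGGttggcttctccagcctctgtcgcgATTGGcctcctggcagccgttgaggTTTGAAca
Smc1a (plus strand, chrX:152016296-152016427): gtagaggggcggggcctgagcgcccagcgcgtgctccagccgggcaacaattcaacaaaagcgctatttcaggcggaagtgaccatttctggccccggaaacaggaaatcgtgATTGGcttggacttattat
Smc3 (plus strand, chr19:53600216-53600395): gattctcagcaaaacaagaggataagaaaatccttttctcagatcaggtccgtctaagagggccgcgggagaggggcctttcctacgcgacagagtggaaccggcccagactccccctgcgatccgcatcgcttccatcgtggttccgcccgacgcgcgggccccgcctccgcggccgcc
Smc2 held a CHR 145 bases and a CCAAT box 119 bases before its start. Ncapd2 held CCAAT boxes at 177, 148 and 48 bases, a CHR at 123 bases and an E2F site (TTTGGCGC) at 8 bases before the start, of which the box at 48 bases and the E2F site lie outside the printed stretch. In Smc1a a CCAAT box at 19 bases was the only match, Stag1 had a CCAAT box at 78 bases and an E2F site (TTTCCCGC) at 17 bases, and Smc3 had none. These positions count from RefSeq starts. The Stag1 window (chr9:100643268-100643447) lies inside the GENCODE gene given above, before an internal start. For Ncapd2 the 115 bases before the RefSeq start also lie inside the GENCODE gene, with the box at 48 bases and the E2F site. Over all 32851 windows, 17.1% held a CHR, 33.8% a CCAAT box and 1.53% an E2F site (TTTGGCGC, TTTCGCGC or TTTCCCGC), and no match of one motif overlapped one of another in these 5 windows. These are matches of letters, and nothing about binding was measured.

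In mesenchymal cells, 6 of the 10 members were past the limit and higher in cycling cells in each library: Rad21, Smc1a, Esco2, Smc2, Smc4 and Ncapd2. Of all genes tested, 8.16% were higher in the library labelled f/f and 8.6% in the library labelled f/w. None of the 10 was lower, where 4.13% and 5.41% of all genes were. The median log2 ratio of the members was 1.11 and 1.04, and that of all genes 0.01 and -0.01. The comparison rests on 548 cycling and 1490 non-cycling cells of the library labelled f/f, with medians of 14002.5 and 9359 UMIs per cell, and on 242 and 872 cells of the library labelled f/w, with 15280 and 9767 UMIs.

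The condensin genes and Esco2 had the widest gaps between the states, whereas the cohesin ring was well represented in both. Smc2 was at 340.3 and 46.6 CPM in cycling and non-cycling mesenchymal cells of the library labelled f/f, and at 305 and 44.1 CPM in the library labelled f/w. Smc4, its partner, was at 356 and 49.7 CPM in the first library and at 318 and 47.7 CPM in the second. Ncapd2 was at 54.1 and 6.30 CPM, and at 42.9 and 5.90 CPM. In log2 terms the ratios were 2.87 (2.75 to 2.99) and 2.79 (2.63 to 2.95) for Smc2, 2.84 (2.73 to 2.96) and 2.74 (2.58 to 2.90) for Smc4, and 3.10 (2.78 to 3.44) and 2.86 (2.42 to 3.33) for Ncapd2.

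Esco2, which acts in S phase, stood apart from every other member. It was at 96.2 and 2.26 CPM in cycling and non-cycling mesenchymal cells of the library labelled f/f, and at 104 and 1.93 CPM in the library labelled f/w, log2 ratios of 5.41 (4.92 to 5.96) and 5.75 (5.07 to 6.52). When cells were thinned to 5000 UMIs, 33.6% of cycling and 1.39% of non-cycling cells of the library labelled f/f had an Esco2 UMI, and 34.6% and 0.851% of the library labelled f/w (unthinned 54.6%, 2.15%, 57.0% and 1.72%). In non-cycling red blood cell precursors, used here as cells that should hold little of it, the thinned shares were 0 of 63 cells (f/f), for which the exact upper limit is 5.69%, and 1.43% of 70 cells (f/w), with medians of 10308 and 11666 UMIs per cell. The UMIs of these precursors count all genes, haemoglobin genes included. These precursors are too few to tell whether the share in non-cycling mesenchymal cells is background. The ratios of Esco2 have a denominator at that low level.

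The subunits of the cohesin ring differed among themselves. Rad21, which separase cleaves at anaphase, was at 186 and 71.3 CPM in cycling and non-cycling mesenchymal cells of the library labelled f/f, and at 139 and 61.6 CPM in the library labelled f/w. Smc1a was at 287 and 161 CPM in the first library and at 313 and 167 CPM in the second. The log2 ratios of Rad21, 1.38 (1.27 to 1.50) and 1.17 (1.004 to 1.34), were above those of Smc1a, 0.83 (0.75 to 0.91) and 0.91 (0.80 to 1.02), with intervals that did not overlap in the library labelled f/f and did in the library labelled f/w. Smc3, which pairs with Smc1a, was at 312 and 235 CPM and at 329 and 229 CPM. Its log2 ratios of 0.41 (0.33 to 0.48) and 0.52 (0.42 to 0.62) lay below those of its partner without overlap in either library.

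Stag1 and Stag2, which take each other's place on the ring, had ratios with overlapping intervals. Stag1 was at 189 and 138 CPM in cycling and non-cycling mesenchymal cells of the library labelled f/f and at 176 and 131 CPM in the library labelled f/w, log2 ratios of 0.45 (0.36 to 0.55) and 0.43 (0.29 to 0.56). Stag2 was at 123 and 89.7 CPM and at 116 and 77.9 CPM, log2 ratios of 0.46 (0.34 to 0.58) and 0.58 (0.41 to 0.75), the second just under the limit. Nipbl, the loader, had the smallest ratios of the 10. It was at 164 and 144 CPM in the library labelled f/f and at 158 and 152 CPM in the library labelled f/w, log2 ratios of 0.19 (0.09 to 0.29) and 0.06 (-0.08 to 0.19), and the interval of the second includes 0.

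**Figure D1:**
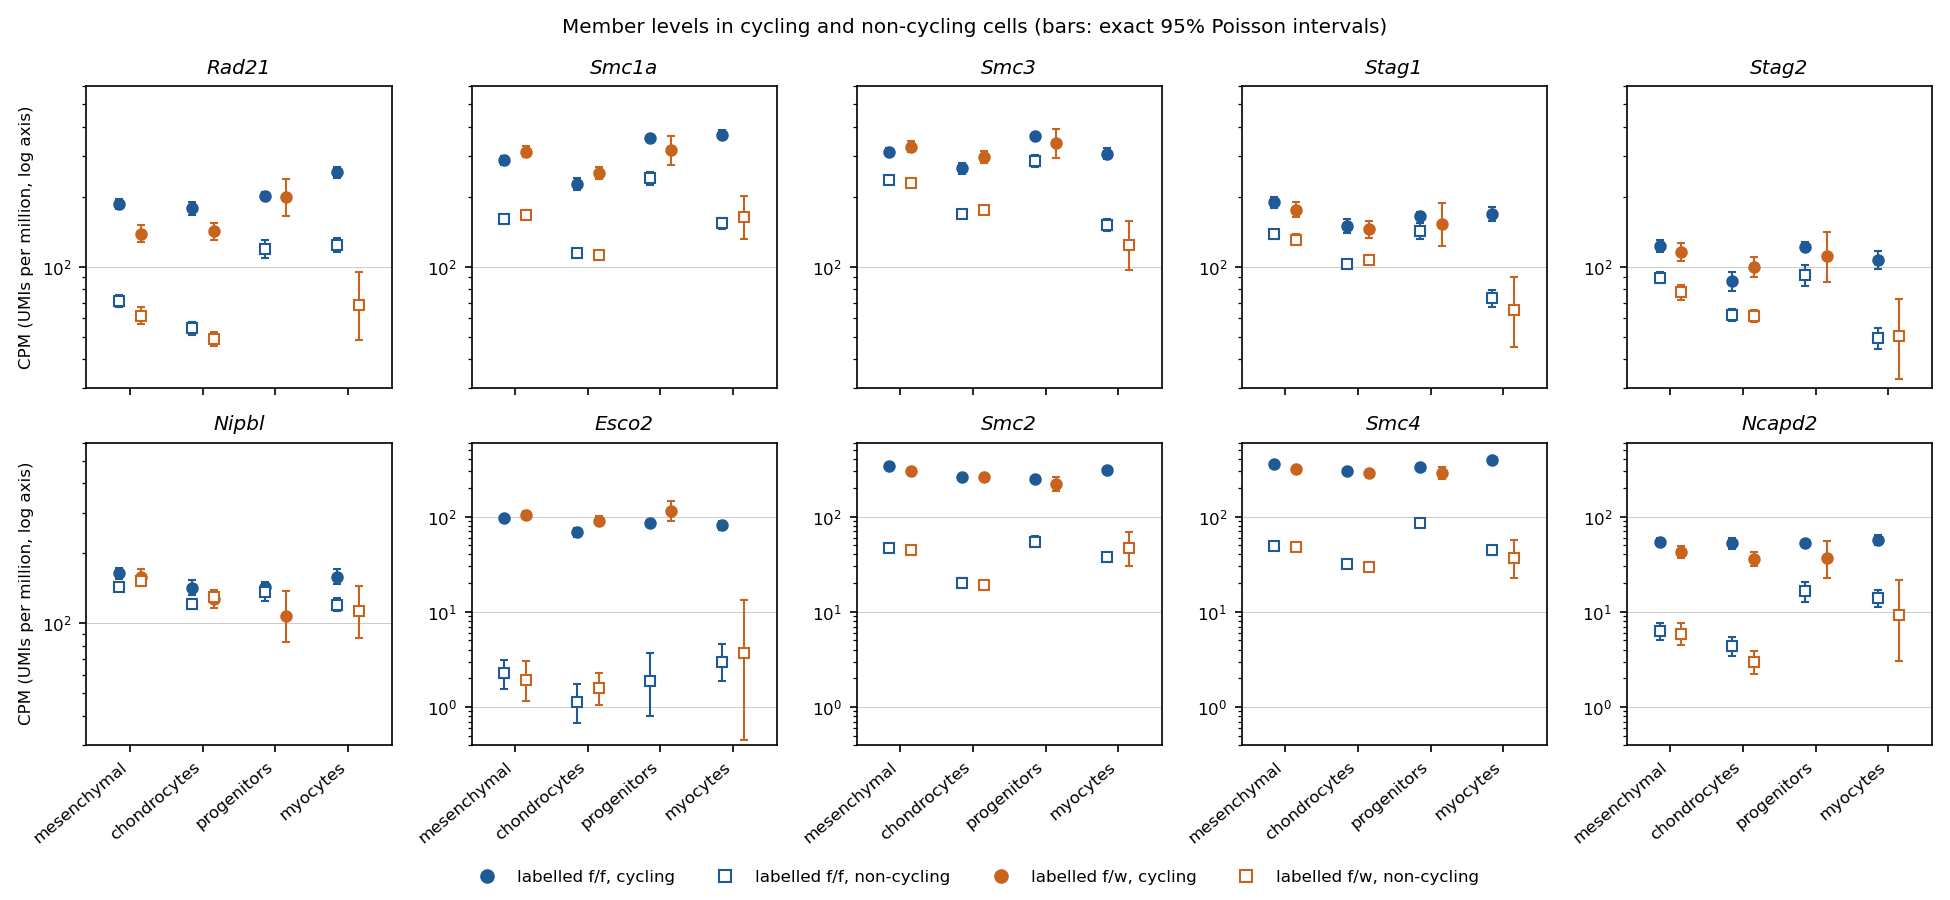
Level of each member in cycling (filled circles) and non-cycling cells (open squares) of 4 cell types, in CPM on a log axis, with exact 95% Poisson intervals; the panels of Esco2, Smc2, Smc4 and Ncapd2 have a longer axis than the other 6. Blue is the library labelled f/f and orange the library labelled f/w, and groups under 20 cells are not drawn. Those 4 genes show a wide gap between the states in every type drawn in both states, and the points of Nipbl lie close together.

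Chondrocytes, the cells of cartilage, gave 7 members past the limit and higher in cycling cells of the library labelled f/f (10.6% of all genes) and 8 in the library labelled f/w (9.44% of all genes). The 6 members of mesenchymal cells were among them, with Smc3 in both libraries and Stag2 in the library labelled f/w. The non-cycling levels of the condensin pair were below those of mesenchymal cells. Smc2 was at 258 and 20.2 CPM in cycling and non-cycling chondrocytes of the library labelled f/f and at 263 and 19.3 CPM in the library labelled f/w, log2 ratios of 3.68 (3.50 to 3.85) and 3.77 (3.59 to 3.95). Smc4 was at 305 and 32.0 CPM and at 288 and 29.6 CPM. Rad21 was at 178 and 54.5 CPM and at 142 and 48.8 CPM, log2 ratios of 1.71 (1.58 to 1.84) and 1.54 (1.38 to 1.70). As in mesenchymal cells, Nipbl differed least between the states. It was at 142 and 121 CPM in the library labelled f/f and at 128 and 129 CPM in the library labelled f/w, log2 ratios of 0.23 (0.11 to 0.36) and -0.02 (-0.16 to 0.12). The cycling and non-cycling cells had medians of 16071.5 and 11188 UMIs in the first library and 16103 and 10261.5 in the second.

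Myogenic progenitors, the dividing precursors of muscle, could be compared between states in the library labelled f/f alone, since the library labelled f/w held 32 cycling and 17 non-cycling ones. In 800 cycling against 348 non-cycling cells, 5 members were past the limit and higher (6.81% of all genes): Rad21, Esco2, Smc2, Smc4 and Ncapd2. Smc1a was just under the limit, at 357 and 240.2 CPM and a log2 ratio of 0.57 (0.47 to 0.67). Some members were higher in non-cycling progenitors than in non-cycling mesenchymal cells and chondrocytes. How many of all genes differ in this way between these types was not counted. Rad21 was at 119.5 CPM, Smc1a at 240.2 CPM, Smc3 at 286 CPM, Smc4 at 85.6 CPM and Ncapd2 at 16.4 CPM, each above the same gene in both types of that library without overlap of the Poisson intervals. In log2 terms the ratios were 2.18 (1.99 to 2.38) for Smc2, 1.97 (1.82 to 2.13) for Smc4, 1.71 (1.35 to 2.08) for Ncapd2 and 0.76 (0.62 to 0.90) for Rad21. Each of the 4 was below its value in mesenchymal cells of the same library. Just the 2 UMIs of the limit were found in 69 of 348 non-cycling progenitors. In non-cycling mesenchymal cells 117 of 1490 had them, and in chondrocytes 104 of 1417. The part of this difference in these levels and ratios was not tested. Esco2, at 86.6 and 1.87 CPM, had a ratio of 5.53 (4.55 to 6.75).

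In differentiating myocytes, chosen by UMIs of Myog, the factor that starts muscle differentiation, 9 members were past the limit and higher in cycling cells of the library labelled f/f, all but Nipbl, where 18.6% of all genes were. There were 250 cycling and 557 non-cycling cells. Here also Smc3, at 307 and 151 CPM, Stag1, at 168 and 73.2 CPM, and Stag2, at 107 and 49.3 CPM, were past the limit. Their log2 ratios were 1.02 (0.91 to 1.13), 1.20 (1.04 to 1.36) and 1.11 (0.92 to 1.31). Nipbl was at 159 and 120.5 CPM, a ratio of 0.40 (0.26 to 0.54).

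The non-cycling myocytes were set beside the non-cycling progenitors of that library, a comparison chosen after values of these cells were seen. Of the myocytes 61 of 557, and of the progenitors 69 of 348, had just 2 UMIs of Mki67 and Top2a. The part of this difference in the ratios was not tested. Of 9 members tested, 5 were past the limit and lower in myocytes, where 26% of all genes were: Smc1a, Smc3, Stag1, Stag2 and Smc4. Smc3 was at 151 and 286 CPM in myocytes and progenitors, a log2 ratio of -0.92 (-1.04 to -0.80). Stag1 was at 73.2 and 142 CPM, a ratio of -0.96 (-1.13 to -0.79), and Stag2 at 49.3 and 91.9 CPM, a ratio of -0.90 (-1.11 to -0.69). Smc1a was at 154 and 240.2 CPM, a ratio of -0.64 (-0.77 to -0.52), and Smc4 at 44.6 and 85.6 CPM, a ratio of -0.94 (-1.16 to -0.72). The third subunit of the ring, Rad21, was not among them. It was at 124 and 119.5 CPM, a ratio of 0.05 (-0.10 to 0.21) with an interval that includes 0, and the loader Nipbl at 120.5 and 136 CPM, a ratio of -0.18 (-0.33 to -0.02). In cycling cells no member was past the limit in either direction between these types (7.54% of all genes were higher and 15.2% lower), and Rad21 was at 255 and 202 CPM, a ratio of 0.33 (0.24 to 0.43).

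The cycling ratios were then followed over all cell types. There were 19 groups of a type and a library with at least 20 cells of each state, in which 9.84% of all tested values of genes were past the limit and higher (4.71 to 18.6% by group) and 6.13% lower (1.76 to 17.4%). Smc2 and Smc4 were past the limit and higher in 19 of 19, with log2 ratios from 1.53 to 3.77 and from 0.93 to 3.68. Esco2 was in 11 of 11 and Ncapd2 in 12 of 12 groups where they had enough UMIs, with ratios from 4.24 to 7.12 and from 1.71 to 3.60. Smc1a was in 18 and Rad21 in 17 of 19, with medians of 0.86 and 1.15. Smc3 and Stag2 were in 7 and Stag1 in 4, and the ratios of these 3 were above 0 in 19 of 19. Nipbl was in 0 of 19, with ratios from -0.34 (blood endothelial cells, f/f) to 0.44 (pericytes, f/f), 14 of them above 0. No member was past the limit and lower in any of these groups. The order of the members was not the same in every type. In myocytes of the library labelled f/f Rad21, at a ratio of 1.04 (0.91 to 1.17), was below Smc1a, at 1.27 (1.16 to 1.38), whereas in mesenchymal cells of that library it was above it. Ncapd2 was above Smc2 and Smc4 in mesenchymal cells and below both in progenitors, with intervals that overlapped, and, at 2.04 (1.71 to 2.38) against 3.04 (2.85 to 3.23) and 3.15 (2.98 to 3.33), below both in myocytes.

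**Figure D2:**
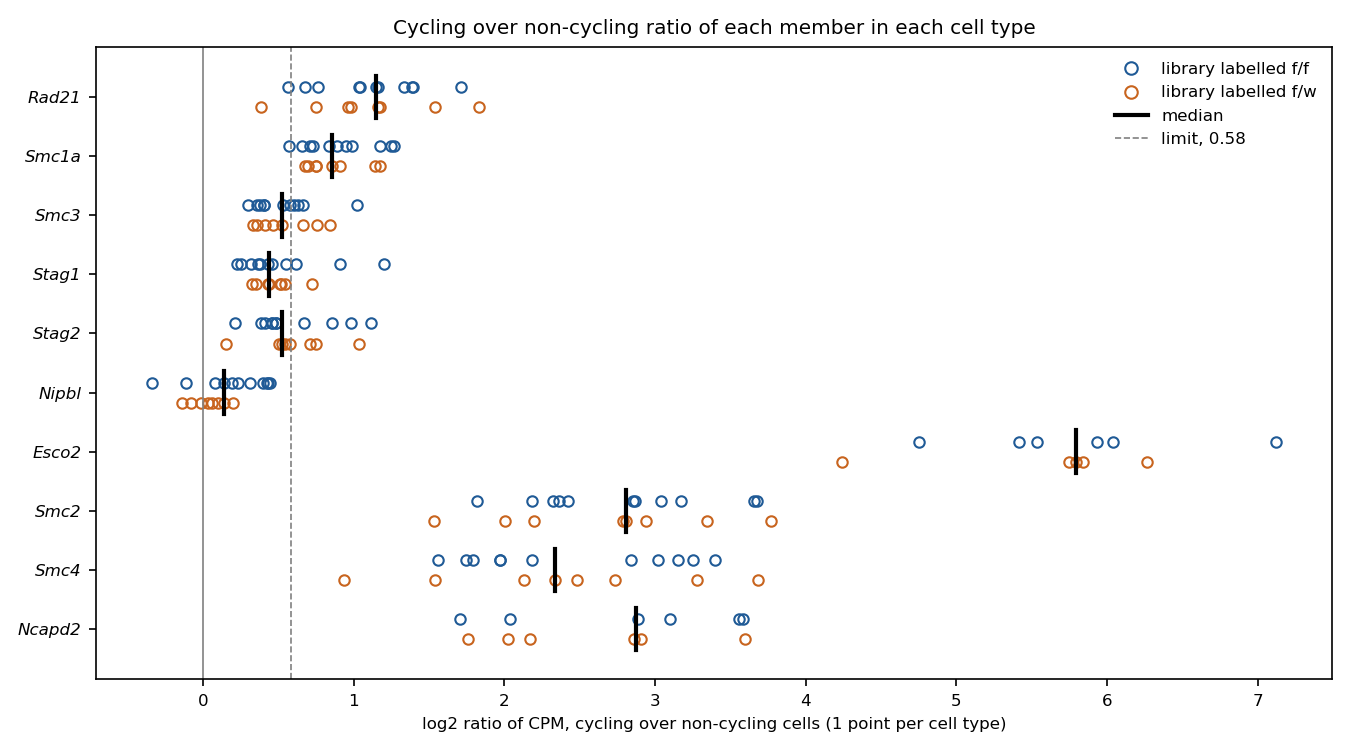
log2 ratio of CPM in cycling over non-cycling cells for each member, 1 open circle per cell type and library (blue, labelled f/f; orange, labelled f/w), with the median over both libraries as a black bar, 0 as a solid line and the limit of 0.58 dashed. Smc2, Smc4 and Ncapd2 lie at 0.93 or more, Esco2 at 4.24 or more and the ring and Stag genes between 0.15 and 1.83, and Nipbl is the one member with points on both sides of 0.

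The levels also followed the amount of Mki67 and Top2a, and not only the limit between the states. Typed cells were put in bins of 0, 1 to 2, 3 to 9 and 10 or more UMIs of these genes. In both libraries Rad21, Smc1a, Stag2, Esco2, Smc2, Smc4 and Ncapd2 were higher in each bin than in the one before. Smc3, Stag1 and Nipbl were so in the library labelled f/f alone. Some steps had overlapping intervals, as that of Nipbl there from 133 (128 to 138) to 134 CPM (127 to 141). How many of all genes rise in this way was not counted. Cells in higher bins were also deeper, with medians of 10028, 11607, 14196.5 and 17306 UMIs (f/f) and 9700, 11304, 15914.5 and 19036.5 UMIs (f/w). Smc2 was at 29.3, 44.8, 156 and 310.2 CPM in the library labelled f/f and at 25.8, 49.0, 152 and 274 CPM in the library labelled f/w. Esco2 was at 1.66, 2.12, 23.4 and 96.3 CPM and at 1.35, 3.03, 24.9 and 85.9 CPM, so that nearly all of its difference lay above 2 UMIs. Nipbl was at 129, 133, 134 and 156 CPM and at 133, 134, 133 and 151 CPM. From the lowest to the highest bin the level was 10.6- and 10.6-fold higher for Smc2, 10.1- and 9.43-fold for Smc4, 2.92- and 2.48-fold for Rad21, and 1.21- and 1.14-fold for Nipbl. These bins mix cell types in shares that differ between bins and libraries.

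**Figure D3:**
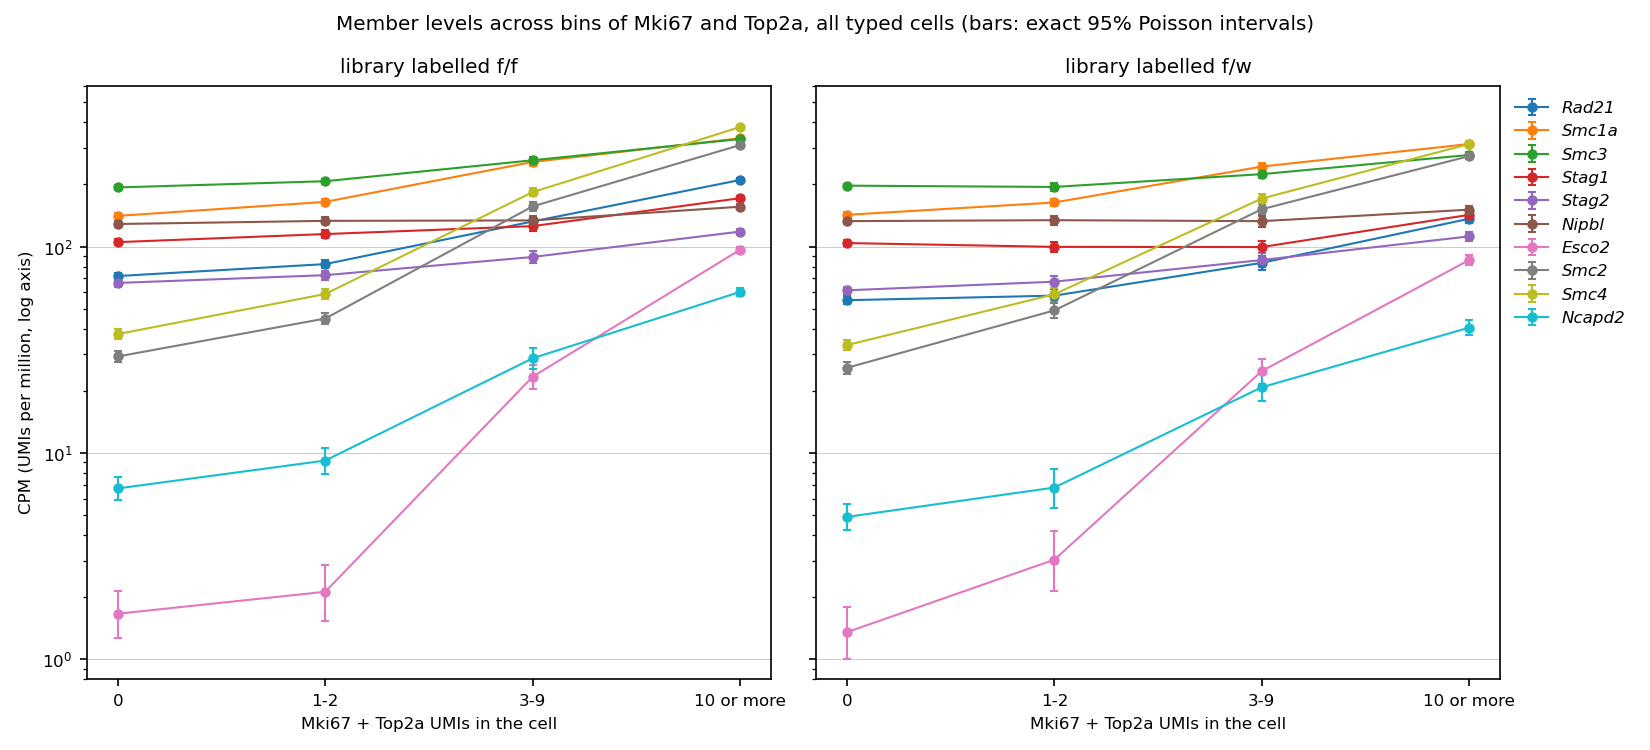
Level of each member (CPM, log axis, exact 95% Poisson intervals) in typed cells binned by their UMIs of Mki67 and Top2a, for the library labelled f/f (left) and the library labelled f/w (right). The lines of Esco2, Smc2, Smc4 and Ncapd2 climb most, and that of Nipbl stays between 129 and 156 CPM.

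Within cycling cells, the members differed in where they were highest between S phase and mitosis. Cycling cells were ordered by the share of 33 S genes among their UMIs of S genes and 45 G2/M genes, lists that hold no member, and 3346 of them were split in tertiles at shares of 0.190 and 0.375. Of these, 1283 lie within 0.05 of one of the limits, so that the tertiles are ranges and not phases. Mki67 and Top2a together also differed between the tertiles of all typed cells. They were at 882, 1338 and 1223.5 CPM in the S-high, middle and G2/M-high ones (f/f) and at 661, 737 and 820 CPM (f/w). The part of this difference in the ratios was not tested. In the library labelled f/f, 4 members were past the limit in the S-high against the G2/M-high tertile of all typed cells, 1 higher (6.39% of all genes) and 3 lower (5.54%). In the library labelled f/w 3 were, 1 higher (5.94%) and 2 lower (3.74%). Esco2 was the higher one in each library, and Rad21 and Ncapd2 were lower in each, with Smc4 in the library labelled f/f.

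Inside cell types, Esco2 was higher and Rad21 lower in the S-high than in the G2/M-high tertile. In mesenchymal cells and chondrocytes of both libraries, Esco2 was highest in the middle tertile. In mesenchymal cells of the library labelled f/f, Esco2 was at 106, 152 and 52.0 CPM in the S-high, middle and G2/M-high tertiles, and in the library labelled f/w at 132, 155 and 41.3 CPM, S-high over G2/M-high log2 ratios of 1.03 (0.75 to 1.32) and 1.68 (1.26 to 2.11). In progenitors of the library labelled f/f it was at 112, 95.8 and 25.3 CPM, a ratio of 2.14 (1.81 to 2.49). Rad21 was at 141, 185 and 222 CPM in the same tertiles of mesenchymal cells of the library labelled f/f and at 101, 142 and 168 CPM in the library labelled f/w, with ratios of -0.66 (-0.85 to -0.48) and -0.73 (-1.04 to -0.43). In progenitors it was at 174, 213 and 238 CPM, a ratio of -0.45 (-0.58 to -0.31) that is under the limit. Of all genes, 8.15% and 6.75% were past the limit and higher and 5.86% and 5.35% lower in mesenchymal cells of the libraries labelled f/f and f/w, and 7.12% were higher and 4.34% lower in progenitors. In chondrocytes the ratios were 1.54 (1.05 to 2.04) and 1.38 (0.87 to 1.91) for Esco2 and -0.67 (-0.91 to -0.43) and -0.97 (-1.30 to -0.64) for Rad21, where 7.12% and 7.35% of all genes were higher and 6.94% and 6.44% lower. Esco2 was at 76.9, 118 and 26.5 CPM in their S-high, middle and G2/M-high tertiles (f/f) and at 86.7, 161 and 33.4 CPM (f/w).

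The condensin partners, which form 1 heterodimer, had different ratios within cycling cells. Smc4 was at 249.8, 353 and 441 CPM in the S-high, middle and G2/M-high tertiles of mesenchymal cells of the library labelled f/f, whereas Smc2 was at 298, 381 and 348 CPM, log2 ratios of -0.82 (-0.96 to -0.69) and -0.22 (-0.36 to -0.09). In the library labelled f/w the ratios were -0.44 (-0.64 to -0.25) and 0.19 (-0.01 to 0.38). In progenitors Smc4 was at 241, 381 and 439 CPM and Smc2 at 216, 270.0 and 271 CPM, ratios of -0.87 (-0.97 to -0.76) and -0.33 (-0.45 to -0.20). The intervals of the partners did not overlap in these 3 groups nor in chondrocytes of the library labelled f/f. In chondrocytes of the library labelled f/w they did, with -0.73 (-0.96 to -0.50) for Smc4 and -0.77 (-1.01 to -0.54) for Smc2. Ncapd2 was at 39.2, 56.2 and 64.3 CPM in mesenchymal cells of the library labelled f/f, a ratio of -0.71 (-1.07 to -0.36).

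The other cohesin genes stayed under the limit in the tertiles of these 3 types. Stag2 leaned to the S-high cells, with log2 ratios above 0 in all 5 groups of a type and library, and Stag1 was below 0 in 4. In chondrocytes of the library labelled f/f Stag2 was at 104, 88.0 and 71.1 CPM in the S-high, middle and G2/M-high tertiles, a ratio of 0.55 (0.21 to 0.88), and Stag1 at 135, 168 and 150.1 CPM, a ratio of -0.15 (-0.41 to 0.11). Smc3 also leaned to the S-high cells, with 394, 369 and 309 CPM in progenitors and a ratio of 0.35 (0.24 to 0.46), whereas its partner Smc1a was at 327, 382 and 372 CPM, a ratio of -0.19 (-0.29 to -0.08). Nipbl was below 0 in all 5 groups, from -0.44 (-0.63 to -0.25) in mesenchymal cells of the library labelled f/f to -0.15 (-0.32 to 0.01) in progenitors.

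**Figure D4:**
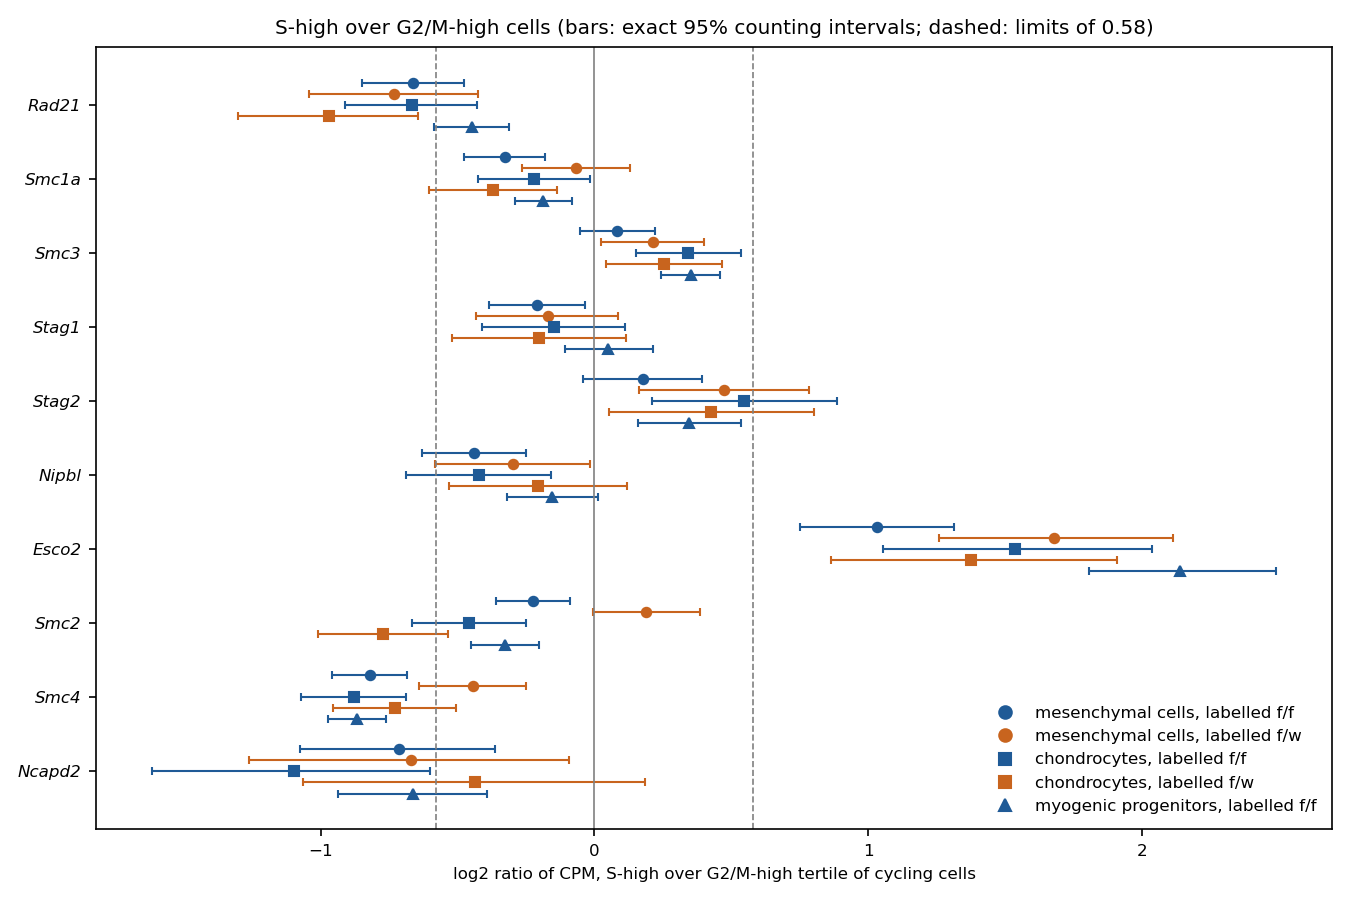
log2 ratio of CPM in the S-high over the G2/M-high tertile of cycling cells for each member, with exact 95% counting intervals, in mesenchymal cells (circles), chondrocytes (squares) and myogenic progenitors (triangles) of the library labelled f/f (blue) and f/w (orange). Esco2 lies beyond 0.58 in all 5 groups, Rad21, Smc4 and Ncapd2 lie below 0 in all 5, and Smc3 and Stag2 lie above 0.

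Between the libraries, no member was past the limit in the largest cell types. The counts in the library labelled f/w over the library labelled f/f, in either direction, were 0 of 10 in cycling mesenchymal cells (8.34% of all genes), 0 of 10 in non-cycling ones (7.76%), 0 of 10 in cycling chondrocytes (5.33%), 0 of 9 in non-cycling ones (5.67%) and 0 of 10 in cycling progenitors (7.14%). The genes that define the states also differed between the libraries. Mki67 and Top2a together were lower in the library labelled f/w in 9 of 9 cycling types, at 1005 against 1292 CPM in mesenchymal cells, 923 against 1094 CPM in chondrocytes and 918 against 1181 CPM in progenitors, and in 11 of 13 non-cycling types, at 26.8 against 39.8 CPM and 19.6 against 30.5 CPM in the first pair of types. Rad21, Smc1a, Stag2, Esco2, Smc2, Smc4 and Ncapd2 were higher in each bin of these genes above than in the one before, in both libraries. The part of the difference in Mki67 and Top2a in the ratios between the libraries was not tested.

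Under the limit, Rad21 was lower in the library labelled f/w. It was at 139 against 186 CPM in cycling mesenchymal cells, a log2 ratio of -0.42 (-0.56 to -0.28), and at 142 against 178 CPM in cycling chondrocytes, a ratio of -0.33 (-0.48 to -0.17). In non-cycling cells of these types the ratios were -0.21 (-0.36 to -0.06) and -0.16 (-0.29 to -0.02). In the 32 cycling progenitors of the library labelled f/w and the 800 of the library labelled f/f Rad21 was at 199 against 202 CPM, a ratio of -0.02 (-0.30 to 0.24).

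The ratio of Rad21 was below 0 in 9 of 9 types for cycling cells, with the interval below 0 in 4, and in 7 of 9 types for non-cycling cells, with the interval below 0 in 5. It was past the limit in 2 types of each state. In cycling types the median log2 ratio of all genes ran from -0.08 in keratinocytes to 0.02 in neurons. From 0 of 10 members (mast cells) to 7 of 10 (blood endothelial cells) had ratios above 0. How many of all genes are below 0 in as many types was not counted, for Rad21 or for Ncapd2 and Smc4 below. In cycling keratinocytes Rad21 was at 77.2 against 124 CPM, a log2 ratio of -0.68 (-1.15 to -0.22), where 10.1% of all genes were lower. Mki67 and Top2a were at 314 against 543 CPM in these cells, and 11 of 41 against 3 of 31 cells had just the 3 UMIs of the limit. In cycling mast cells Rad21 was at 77.3 against 117 CPM, a ratio of -0.60 (-1.003 to -0.18), where 8.94% were, with Mki67 and Top2a at 459.9 against 690.2 CPM. There were 98 against 22 of these mast cells. In non-cycling myocytes it was at 68.7 against 124 CPM, a ratio of -0.85 (-1.37 to -0.38), on 36 cells of the library labelled f/w and with 3.28% of all genes lower. In the non-cycling osteoblast lineage it was at 38.0 against 58.3 CPM, a ratio of -0.62 (-1.03 to -0.22), with 5.88%. In this last pair of groups Mki67 and Top2a were at 37.1 against 37.1 CPM and 18.2 against 18.0 CPM. In the library labelled f/w these values rest on 20 and 34 UMIs. The myocytes of the libraries also differed in other genes. Over both states, Acta1 of muscle was at 501 against 147 CPM and Msc at 7.85 against 17.8 CPM in them. The part of these differences in the ratio of Rad21 was not tested. Within tertiles of cycling mesenchymal cells the ratio of Rad21 was -0.47 (-0.77 to -0.18) in the S-high, -0.38 (-0.65 to -0.12) in the middle and -0.40 (-0.61 to -0.20) in the G2/M-high tertile. In chondrocytes it was -0.62 (-0.96 to -0.29), -0.10 (-0.38 to 0.18) and -0.32 (-0.55 to -0.08), and the interval in the middle tertile includes 0.

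Ncapd2 was below 0 in most cycling types and Esco2 on both sides of 0. In cycling cells Ncapd2 was at 42.9 against 54.1 CPM in mesenchymal cells, a log2 ratio of -0.34 (-0.60 to -0.08), and at 36.1 against 52.4 CPM in chondrocytes, a ratio of -0.53 (-0.84 to -0.23). Its ratio was below 0 in 7 of 8 types and past the limit in mast cells, at 27.2 against 46.1 CPM and -0.76 (-1.43 to -0.06), on 98 against 22 cells, where 8.94% of all genes were lower. The ratio of Esco2 was above 0 in 6 of 9 cycling types, with the interval above 0 in 3. In mesenchymal cells it was at 104 against 96.2 CPM, a ratio of 0.11 (-0.06 to 0.28). It was at 90.7 against 68.4 CPM in cycling chondrocytes, a ratio of 0.41 (0.19 to 0.63), and at 115 against 86.6 CPM in cycling progenitors, a ratio of 0.40 (0.03 to 0.75). It was past the limit in cycling lymphatic endothelial cells, at 41.4 against 20.1 CPM and 1.04 (0.44 to 1.71), on 204 against 59 cells, where 2.78% of all genes were higher. The ratio was below 0 in cycling neurons, at 107 against 142 CPM and -0.41 (-0.83 to 0.02), in the osteoblast lineage, at 41.4 against 59.3 CPM and -0.52 (-1.28 to 0.20), and in mast cells, at 18.4 against 23.1 CPM and -0.32 (-1.22 to 0.67), each with an interval that includes 0.

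Of the other members, Smc4 was below 0 in 9 of 9 cycling types and past the limit in keratinocytes, at 139 against 243 CPM and a log2 ratio of -0.81 (-1.14 to -0.47). There 10.1% of all genes were lower, on 41 against 31 cells. Mki67 and Top2a were at 314 against 543 CPM in these keratinocytes, and 11 against 3 cells had just the 3 UMIs of the limit. Smc4 was also past the limit in the non-cycling Schwann lineage, at 36.4 against 85.6 CPM and -1.23 (-2.23 to -0.35), on 40 against 66 cells, where 4.37% of all genes were lower. In cycling mesenchymal cells Smc2 was at 305 against 340.3 CPM, a ratio of -0.16 (-0.26 to -0.06), Smc1a at 313 against 287 CPM, a ratio of 0.13 (0.03 to 0.23), and Smc3 at 329 against 312 CPM, a ratio of 0.08 (-0.02 to 0.17). Nipbl was at 158 against 164 CPM, a ratio of -0.05 (-0.19 to 0.08). Smc1a, Smc2, Smc3, Stag1, Stag2 and Nipbl were past the limit in no cycling or non-cycling type compared. Of all genes, 3.7 to 10.1% were past it and lower and 1.57 to 6.08% higher in cycling cells of a type. In non-cycling cells the ranges were 2.59 to 18.7% and 0.998 to 9.58%.

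With all typed cells pooled, Rad21 and Ncapd2 were past the limit and lower in cycling cells of the library labelled f/w, where 10.4% of all genes were, with log2 ratios of -0.71 (-0.77 to -0.64) and -0.66 (-0.78 to -0.54). The mix of types differs between the libraries, with 1148 and 49 progenitors, 31 and 270 mast cells, and 31.3% and 20.8% of typed cells in the cycling state (f/f and f/w), so that a pooled ratio holds both the mix and the level. Within types, markers of other cells in the sort differed too. In mesenchymal cells Msc was at 2.58 and 0.298 CPM and Acta1 of muscle at 6.03 and 1.34 CPM (f/f and f/w). The part of these differences in the ratios of the members was not tested.

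**Figure D5:**
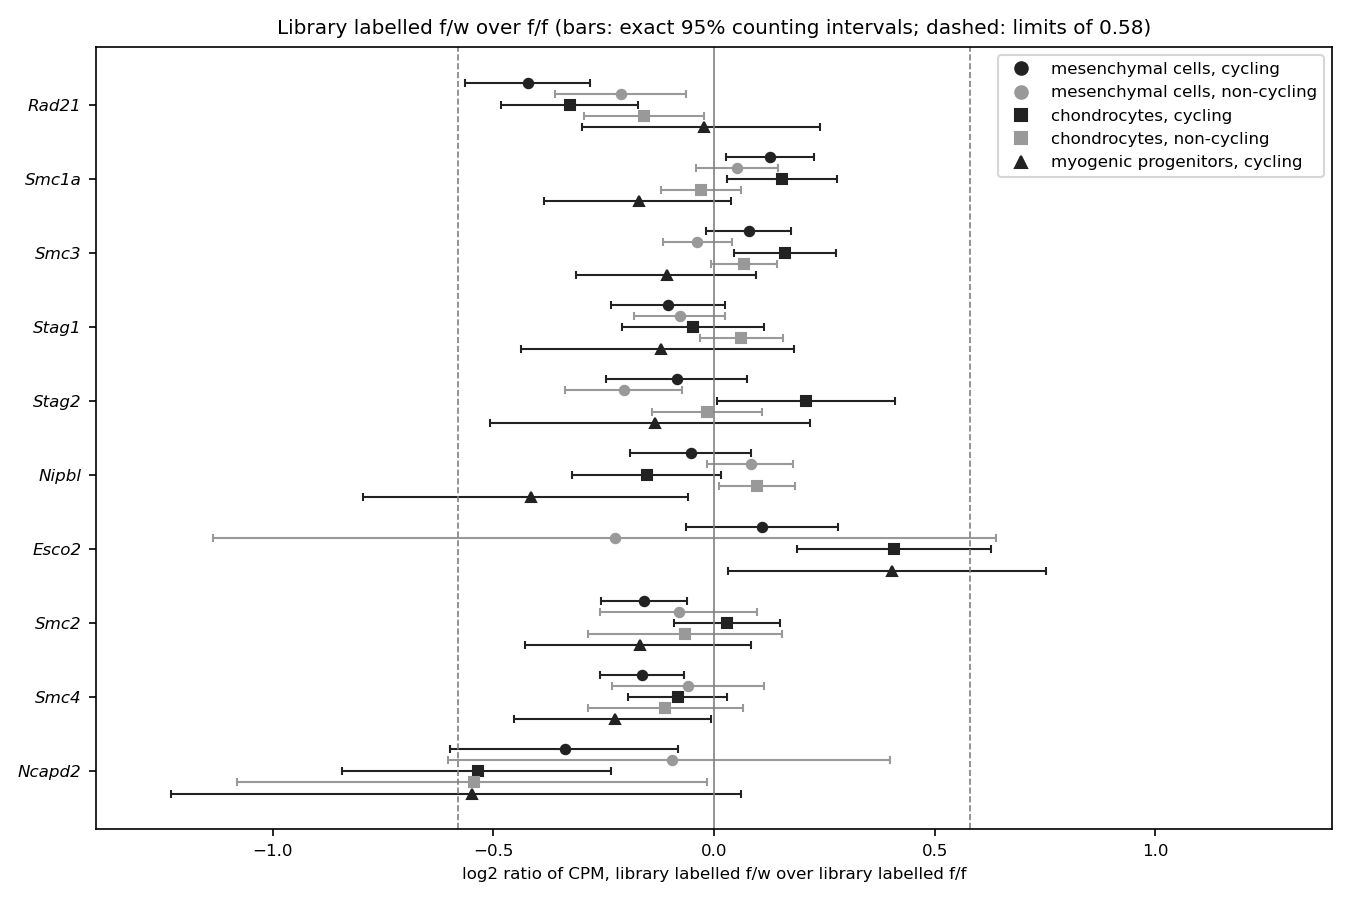
log2 ratio of CPM in the library labelled f/w over the library labelled f/f for each member, with exact 95% counting intervals, in cycling (black) and non-cycling cells (grey) of mesenchymal cells (circles) and chondrocytes (squares) and in cycling myogenic progenitors (triangles). No point lies beyond the dashed limits of 0.58, and the points of Rad21 and Ncapd2 lie below 0.

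By cell type, the members had different orders, given here as the mean of both libraries' CPM. In cycling cells, 9 types had at least 20 cells in each library. Differentiating myocytes, with 11 cycling cells in the library labelled f/w, were not among them. Among these 9 types Rad21 was highest in myogenic progenitors (201 CPM) and lowest in mast cells (97.1 CPM). Neurons led for Smc1a (350.1 CPM), Smc3 (389 CPM), Stag1 (184 CPM), Esco2 (125 CPM), Smc2 (355 CPM), Smc4 (350.2 CPM) and Ncapd2 (75.2 CPM), on 51 and 69 cycling cells of the libraries. These cells were named by UMIs of Tubb3, Stmn2 and Elavl4 alone, and no other neuronal marker was checked. They held Mki67 and Top2a at 1242 and 1177 CPM (f/f and f/w). Whether they are dividing neural precursors and not neurons was not examined. Stag2 was highest in mesenchymal cells (119.6 CPM). Esco2 spread most between types, 6.02-fold upward from 20.8 CPM in mast cells, and Nipbl least, 1.39-fold from 125 CPM in mast cells to 173 CPM in keratinocytes. Neighbours in these orders had intervals that overlapped, taken over both libraries, with a single exception, Smc2 in mesenchymal cells above Smc2 in chondrocytes. In the library labelled f/f, cycling myocytes held Rad21 at 255 CPM, against 202 CPM in progenitors. Smc1a and Smc4 were at 370 and 397 CPM in these myocytes, against 340 and 358 CPM in neurons. The other members were lower in these myocytes than in the type named highest.

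In non-cycling cells, 13 types could be ordered. Left out were myogenic progenitors, with 17 non-cycling cells in the library labelled f/w, and mast cells, with 9 in the library labelled f/f. Rad21 was highest in differentiating myocytes (96.4 CPM, from 124 CPM (f/f) and 68.7 CPM (f/w)) and lowest, red blood cell precursors apart, in the osteoblast lineage (48.2 CPM). Smc2 ranged from 67.1 CPM in the Schwann lineage to 19.7 CPM in chondrocytes, and Smc4 from 93.4 CPM in lymphatic endothelial cells to 30.3 CPM in neurons. Neurons, low in Smc4, were highest for Smc3 (289.6 CPM), which was lowest in macrophages (94.7 CPM). Red blood cell precursors held less: Smc3 was at 5.98 and 10.6 CPM and Rad21 at 5.98 and 4.73 CPM. The step down to these cells was the only step between neighbours without overlap for 8 members, and Esco2 and Ncapd2 had none. CPM divides by the UMIs of all genes, haemoglobin genes included, and the part of these in the step was not tested. How many of all genes are lower in these cells was not counted. In the library labelled f/f, non-cycling progenitors held Smc3 at 286 CPM, against 268 CPM in neurons. Smc2 was at 54.5 CPM in them, against 53.1 CPM in the Schwann lineage. Rad21 was at 119.5 against 124 CPM in myocytes, and Smc4 at 85.6 against 95.4 CPM in lymphatic endothelial cells.

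Other genes of the same complexes and of SMC5/6, a list of 30, were counted in the same way. In mesenchymal cells 15 of 26 tested were past the limit and higher in cycling cells of the library labelled f/f and 15 of 24 in the library labelled f/w, and none was lower, beside the 8.16% and 8.6% of all genes given above. The highest ratios, as the mean of both libraries' log2 values, belonged to Ncapg of condensin I (4.64), Cdca5, or sororin, which protects cohesion once Esco2 has acted (4.45), and the shugoshins Sgo2a (4.23) and Sgo1 (3.94), which protect it at centromeres. Ncapg was at 48.4 and 1.79 CPM in cycling and non-cycling cells of the library labelled f/f and at 41.9 and 1.82 CPM in the library labelled f/w. The lowest belonged to Esco1 (-0.26), an acetyltransferase of Smc3 that is not tied to replication, and Hdac8 (-0.25), which removes the acetyl mark from Smc3. In mesenchymal cells Esco1 was at 19.8 and 25.1 CPM in the library labelled f/f and at 25.5 and 28.7 CPM in the library labelled f/w, log2 ratios of -0.34 (-0.62 to -0.07) and -0.17 (-0.52 to 0.16).

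In chondrocytes Esco1 was past the limit and lower in both libraries, at 15.6 and 30.6 CPM in cycling and non-cycling cells of the library labelled f/f and at 18.7 and 32.3 CPM in the library labelled f/w, log2 ratios of -0.97 (-1.33 to -0.62) and -0.79 (-1.16 to -0.43), where 3.6% and 4.71% of all genes were. Esco1 and Esco2 thus had ratios of opposite sign in the same cells. Of the list, 17 of 26 (f/f) and 18 of 25 (f/w) were past the limit and higher in chondrocytes (beside 10.6% and 9.44% of all genes), 9 of 25 in progenitors of the library labelled f/f (6.81%) and 19 of 24 in its myocytes (18.6%). Esco1 was also the 1 gene lower in myocytes, at 24.3 and 37.3 CPM and -0.62 (-0.95 to -0.30), and none was lower in progenitors, where Esco1 was at 14.9 and 14.7 CPM. The subunits made for meiosis, Rec8, Rad21l, Smc1b and Stag3, had too few UMIs to be compared in any of these types.

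Over 49 groups of cells (type, state and library) the profiles of the members were compared on the log2(CPM + 1) scale. The groups share libraries and cell states and are not independent, so these values of Pearson's r are descriptions. Among them are the non-cycling red blood cell precursors of both libraries, where most members were far lower than in other types. There Nipbl was at 2.99 and 9.46 CPM and Smc3 at 5.98 and 10.6 CPM (f/f and f/w). The part of these groups in the values of r was not tested. Smc2 and Smc4 were most alike (0.962), followed by Smc3 and Stag1 (0.942), and Nipbl and Esco2 were least alike (0.188). Among the 3136 genes with enough UMIs, Esco2 was most like the histone gene Hist1h3c (0.958), then Mki67 (0.936) and Top2a (0.935), which define the states. Smc2 and Smc4 were each most like the other, then Hmgb2 (0.959) and Pclaf (0.958) for Smc2 and Hmgb2 (0.957) and Rrm1 (0.949) for Smc4. Ncapd2 was most like Pclaf (0.930), Hmgb2 (0.914) and Smc2 (0.909). The cohesin genes had other neighbours. Rad21 was most like Nucks1 (0.947), Tmpo (0.945) and Hnrnpd (0.940), Smc1a like Sae1 (0.957), Nsmce4a (0.952) and Nudc (0.948), and Smc3 like Snrnp70 (0.964), Pnn (0.960) and Khdrbs1 (0.956). Stag1 was most like Gmps (0.951), Baz1b (0.946) and Smc3 (0.942), Stag2 like Scaf11 (0.945), Sae1 (0.931) and Nup62 (0.931), and Nipbl like Son (0.973), Prrc2c (0.971) and Wac (0.965).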

How the data were processed

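Cells of 2 libraries, 1 per genotype, were profiled with 10x Genomics 3' chemistry. The authors mapped reads to mm10 with Cell Ranger, for which the study's methods and the submitters' processing notes give different versions (the notes, 3.1.0), with STAR and Seurat 3.1.1 in the notes, called cells, and joined the libraries at matched read depth. The deposited matrix holds raw UMI counts per gene and barcode, 156093779 and 128116615 in all, and the barcode suffix gives the library. No column of the matrix was left unmapped.

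Cells within 2 SD of the mean log10 UMIs and log10 genes of their library and with at most 10% mitochondrial UMIs were kept. Types came from fixed limits on marker UMIs, and cells of several types were left out as possible doublets, with no caller run. UMIs were summed per type, state and library and divided by the UMIs of all genes, per 1000000. Poisson intervals of sums, and binomial intervals of the split of 2 sums, were exact (95%; SciPy 1.17.1, NumPy 2.4.6, pandas 2.3.3, Python 3.11.15, figures with matplotlib 3.10.9) and cover counting error only. With 1 library per group no test and no p-value was computed. Groups under 20 cells were not described, and 3 counts were the floor.

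The members, the list of 30 other genes, the marker limits and the S and G2/M lists were chosen with earlier results of these data known. Genes named beside the members are the 4 highest and 2 lowest of that list in mesenchymal cells, the 3 genes most like each member, Srsf2, Mki67, Top2a and markers for the check of types. The calculation was tested on simulated data. Alternatives changed the limit on Mki67 and Top2a, the depth at which cells were called cycling, the filter on cells, the mitochondrial limit, the denominator, the marker limits, the fold limit, the minimum of UMIs and the summary over cells.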

Additional observations from a re-analysis of the deposited data

How the results depend on the processing

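No paired analysis was possible because each genotype has 1 library. Across the alternatives, 99 of 103 counts and summary values stayed within 1.5 times of, or by less than the interval from, the values given. The count of members past the limit between libraries went from 0 to 1 in cycling chondrocytes with cycling at 5 or more UMIs and non-cycling at 0, and from 0 to 1 in cycling and in non-cycling chondrocytes with the marker limits doubled; the member was Ncapd2 each time, with log2 ratios of -0.60, -0.70 and -0.75, and the cause was not tested. Srsf2 moved to -0.55 (f/w over f/f) without haemoglobin, mitochondrial and ribosomal protein genes in the denominator. Of 877 values of single members, 847 stayed within their interval, 30 moved and 0 past the limit changed sign. The direction of the cycling ratio was kept in 446 of 450 values and that of the library ratio in 405 of 427. With the marker limits doubled, cycling progenitors could not be compared between libraries, and non-cycling progenitors (17 cells in the library labelled f/w) could be under no setting. Depth limits Esco2 and Ncapd2 in non-cycling cells, where they had 34 and 95 UMIs in mesenchymal cells of the library labelled f/f. Leaving out a replicate was not possible with 1 library per genotype.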
